A study of Homo sapiens with 6 samples.

Results

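AMP-activated protein kinase (AMPK) is described here through 10 genes, which encode its alpha, beta and gamma subunits and the kinases that activate it. They are PRKAA1, PRKAA2, PRKAB1, PRKAB2, PRKAG1, PRKAG2, PRKAG3, STK11, CAMKK2 and MAP3K7, taken by gene symbol from the 20020 genes of the count table, and all 10 were found. The family was chosen by the difference of PRKAA2 counts between the 2 groups of these same libraries, so the values of PRKAA2 and its share of the alpha subunits are a description and carry no test. The study asked what loss of the nuclease CAD does to the response of colorectal cancer cells to ionizing radiation (IR). RNA was sequenced from HCT116, a human colorectal carcinoma cell line, in 6 libraries. In the CAD-KO2+IR group, 3 libraries came from stable cells in which the lentiCRISPRv2 plasmid carried a guide against CAD, and in the sgVec+IR group 3 libraries came from vector control cells. Both groups had received IR, given in the study as 8 Gy with collection at 24 h, so no unirradiated library enters any value below. CAD-KO2 stands for 1 guide in 1 cell line, and whether it was a single clone is not given in the sources used here. The labels do not say whether the libraries of a group came from separate cultures, so the spread between them, and every p-value built on it, may be technical.

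AMPK is a complex of a catalytic alpha subunit, a beta subunit that holds the complex together and binds glycogen, and a gamma subunit that senses AMP, ADP and ATP. When the cell runs short of energy, binding of AMP to the gamma subunit favours phosphorylation of the activation loop of the alpha subunit, and the active kinase turns down the synthesis of fat, sterol and protein and favours pathways that yield ATP. The tumour suppressor LKB1, encoded by STK11, is the main kinase of that loop, CAMKK2 phosphorylates it when calcium rises, and TAK1, encoded by MAP3K7, has been described as a further activating kinase.

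Libraries held 14032994 to 19574144 counts each. The library of sgVec+IR replicate 3 stood apart, with 7561 genes at no count against 4577 to 5232 in the other 5 libraries, and a mean correlation of log2 CPM (CPM are counts scaled to a library of 1000000 counts) with its own group of 0.888 against 0.940 to 0.984 for the others. CAD-KO2+IR replicate 2 departed from its group in the same sense by the base composition of its genes, and for fold changes that turn or move strongly without sgVec+IR replicate 3 the value without it is given too. DFFB, the gene that encodes the CAD nuclease, had 10.03, 10.1 and 12.4 CPM in CAD-KO2+IR and 21.8, 22.9 and 20.9 CPM in sgVec+IR. The groups did not overlap at DFFB (log2 fold change -1.02, SE 0.19). Its adjusted p was 0.550 in edgeR, 0.108 in edgeR without sgVec+IR replicate 3, and 0.00187 in DESeq2 (log2 fold change -1.01), which called it lower. Of 6 epithelial markers, EPCAM, KRT8, KRT18, KRT19 and CDH1 had group means of 66.7 to 1749 CPM, whereas VIL1 had 0 to 3 counts. Of 8 markers of other cells, DCN was at 0 in all 6 libraries and PTPRC, MYH7, ALB, PECAM1 and COL3A1 had at most 15 counts, while COL1A1 had 34.1 and 33.9 CPM and DES 3.09 and 3.71 CPM in CAD-KO2+IR and sgVec+IR.

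The alpha subunits carry the kinase domain, and HCT116 cells held the mRNA of both. PRKAA1, which encodes the widely expressed alpha1 subunit (identifier ENSG00000132356.12), lies on the reverse strand of chromosome 5 of GRCh38 from 40759379 to 40798374. PRKAA2 encodes alpha2, known from skeletal muscle and heart (ENSG00000162409.12), and lies on the forward strand of chromosome 1 from 56645322 to 56715335. Their coding sequences in release 29 of the GENCODE annotation were 71.6% identical over 1632 aligned bases, and the longest identical run was 24 bases. The stretch that holds this run encodes the glycine-rich loop that binds ATP, and it is shown because it holds the longest run. Whether another stretch of this length differs at fewer bases was not tested. Capitals mark the 15 of 104 bases that differ, at coding bases 63 to 166 of transcript PRKAA1-202 and 30 to 133 of PRKAA2-201.
PRKAA1: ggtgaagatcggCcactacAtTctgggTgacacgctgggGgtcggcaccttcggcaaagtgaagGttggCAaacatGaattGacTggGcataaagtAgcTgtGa
PRKAA2: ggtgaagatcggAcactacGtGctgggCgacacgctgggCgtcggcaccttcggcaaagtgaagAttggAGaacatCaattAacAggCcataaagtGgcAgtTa
No stretch of 50 bases in the annotated transcripts of any of the 10 genes occurred in a transcript of another of them, and none of the 9353 such stretches of PRKAA2 occurred in any other gene. Reads of that length could therefore be told apart between alpha1 and alpha2.

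The counts of PRKAA2 were 440, 631 and 483 in CAD-KO2+IR and 56, 67 and 69 in sgVec+IR, in the order of the replicate numbers, as throughout. Scaled to library size, these were 23.8, 33.3 and 27.5 CPM against 3.42, 4.59 and 4.87 CPM. Every CAD-KO2+IR library lay far above every sgVec+IR library, and the 2 libraries that stood apart were the highest of their groups at this gene. The means were 28.2 ± 4.75 and 4.29 ± 0.764 CPM (SD, n = 3 each), a log2 fold change of 2.72 (SE 0.25) in the quasi-likelihood fit of edgeR. Without sgVec+IR replicate 3 the log2 fold change was 2.82, and with CAD-KO2+IR replicate 2 left out as well it was 2.69.

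PRKAA1 had 80.8, 123 and 92.3 CPM in CAD-KO2+IR and 74.2, 71.9 and 182 CPM in sgVec+IR. The groups overlapped, because sgVec+IR replicate 3 was the highest of all 6 libraries while sgVec+IR replicates 1 and 2 were the lowest. Its means of 98.8 ± 21.98 and 109 ± 62.8 CPM (SD, n = 3 each) gave a log2 fold change of -0.15 (SE 0.39), with an adjusted p of 1.0 over all genes tested. The direction rested on 1 library: without sgVec+IR replicate 3 the log2 fold change of PRKAA1 was 0.44 (adjusted p = 0.423). With 2 libraries against 2 it was 0.25 (adjusted p = 0.0191), which is below the 1.5-fold change asked of a call. That last fit was chosen after seeing the data, and in it 3875 of 13059 genes had an unadjusted p under 0.05.

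The share of each isoform was taken within a library, from counts divided by the exonic length of the gene, so that it does not depend on scaling between libraries. PRKAA2 made up 17.2%, 15.9% and 17.3% of the alpha subunit mRNA in CAD-KO2+IR and 3.14%, 4.28% and 1.84% in sgVec+IR. The remainder was PRKAA1, which thus supplied most alpha mRNA in every library of both groups. The mean share of PRKAA2 was 16.8 ± 0.757% against 3.09 ± 1.22% (SD, n = 3 each), a difference of 13.7 percentage points. Within CAD-KO2+IR the share ranged less between libraries than the CPM of either gene, with replicate 2, which had the highest CPM of both genes, at the lowest share. Leaving out any 1 library kept the difference between 13.1 and 14.3 points, and raw counts without length gave 18 points and coding length 18.5 points. PRKAA1 and PRKAA2 had nearly the same GC content in their longest coding transcripts, 35.3% and 35.2%.

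Summed over both genes per kilobase of exon, alpha subunit mRNA came to 18.1 ± 3.85 CPM per kb in CAD-KO2+IR and 17.1 ± 9.62 CPM per kb in sgVec+IR (SD, n = 3 each). The sum was 14.9, 22.3 and 17.0 in CAD-KO2+IR and 11.7, 11.5 and 28.2 in sgVec+IR, so the groups overlapped through sgVec+IR replicate 3. Without the 2 libraries that stood apart, the sums averaged 15.9 and 11.6 CPM per kb.

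**Figure D1:**
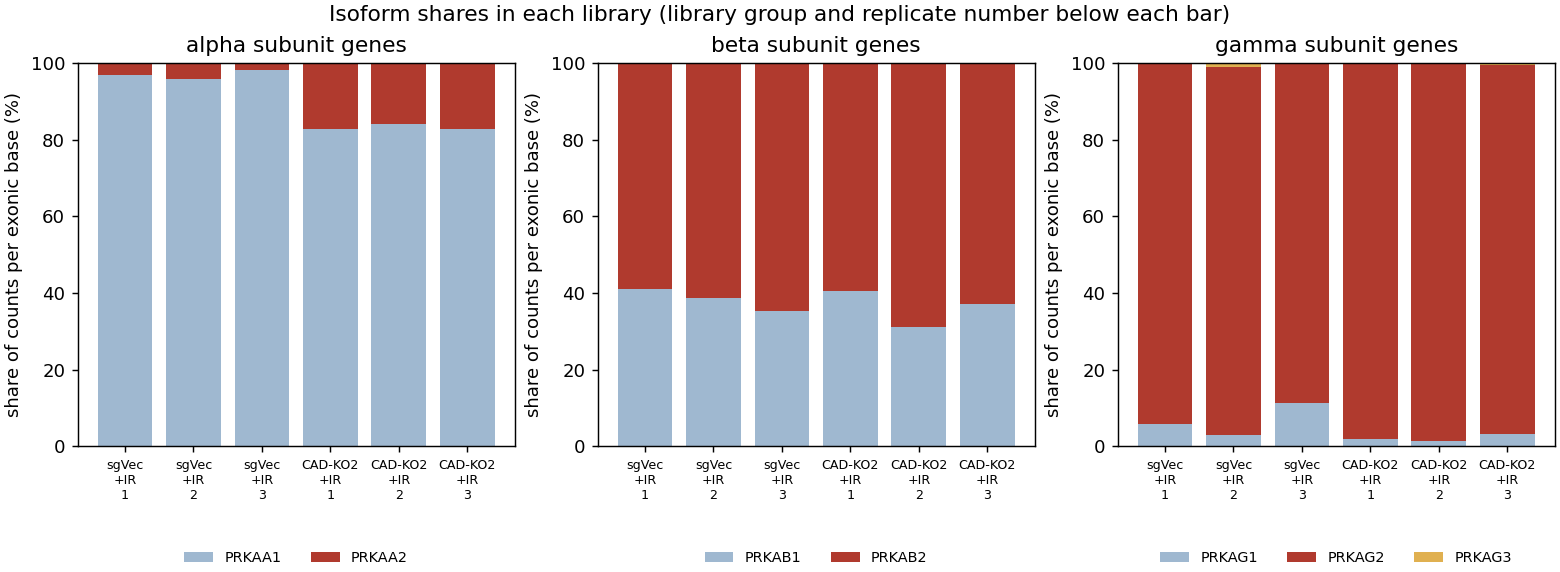
Isoform shares within the alpha, beta and gamma subunit genes of AMPK in percent of counts per exonic base (vertical axis), as 1 stacked bar for each of the 6 libraries (horizontal axis). The 3 CAD-KO2+IR libraries have PRKAA2 shares of 15.9% to 17.3% and the 3 sgVec+IR libraries 1.84% to 4.28%, while the PRKAB2 shares of the groups overlap.

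The beta subunits did not show such a difference. PRKAB1 (beta1, ENSG00000111725.11, chromosome 12 from 119667753 to 119681630, forward strand) had 38.6, 35.8 and 39.1 CPM in CAD-KO2+IR and 39.996, 39.4 and 47.2 CPM in sgVec+IR. All CAD-KO2+IR values lay below all sgVec+IR values, but 39.1 and 39.4 CPM were almost equal. The log2 fold change was -0.16 (SE 0.17, adjusted p = 1.0), and it was -0.03 without both libraries that stood apart. PRKAB2 (beta2, ENSG00000131791.8, chromosome 1 from 147155106 to 147172550, reverse strand) had 49.5, 68.9 and 58.1 CPM against 50.1, 54.3 and 75.4 CPM. The groups overlapped, with the highest value of each group in the library that stood apart in it. Its log2 fold change was -0.03 (SE 0.23, adjusted p = 1.0), and 0.17 without sgVec+IR replicate 3.

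Per length, PRKAB2 was the more abundant beta mRNA in every library. Its share was 59.5%, 68.8% and 63.0% in CAD-KO2+IR and 58.9%, 61.2% and 64.6% in sgVec+IR. The means of 63.7 ± 4.70% and 61.6 ± 2.88% (SD, n = 3 each) differed by 2.15 points (two-sided exact permutation p = 0.6), less than the spread within CAD-KO2+IR, and the difference was -0.369 points without CAD-KO2+IR replicate 2. The sum of both beta genes was 16.8 ± 1.56 and 17.7 ± 3.16 CPM per kb. The 2 coding sequences were 68.3% identical, with a longest identical run of 20 bases.

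Among the gamma subunits, which bind the adenine nucleotides, PRKAG2 supplied most mRNA. PRKAG2 (gamma2, ENSG00000106617.16, chromosome 7 from 151556111 to 151877125, reverse strand) had 38.9, 59.3 and 43.2 CPM in CAD-KO2+IR and 38.2, 42.0 and 51.8 CPM in sgVec+IR. The groups overlapped almost completely, and CAD-KO2+IR replicate 2 was the highest library. Its log2 fold change was 0.10 (SE 0.23, adjusted p = 1.0), 0.24 without sgVec+IR replicate 3 and -0.10 without CAD-KO2+IR replicate 2.

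PRKAG1 encodes gamma1, the widely expressed gamma subunit (ENSG00000181929.13, chromosome 12 from 49002274 to 49018825, reverse strand), yet it had few counts here. They were 9, 9 and 16 in CAD-KO2+IR and 24, 12 and 58 in sgVec+IR, or 0.488, 0.474 and 0.911 CPM against 1.47, 0.821 and 4.09 CPM. The ranges overlapped between CAD-KO2+IR replicate 3 and sgVec+IR replicate 2, and sgVec+IR replicate 3 alone held most of the control counts. The log2 fold change was -1.75 (SE 0.73), with an adjusted p of 1.0 and an unadjusted p under 0.05 in the edgeR test, and it moved to -0.90 without sgVec+IR replicate 3 and -0.73 without both libraries that stood apart. In release 29, exons of DDN-AS1 on the opposite strand cover 532 of the 4184 exonic bases of PRKAG1, or 12.7%, more than for any other member. Whether the reads were counted by strand is not given in the sources used here, so the level of PRKAG1 is uncertain, and the part of the overlap in its low count was not tested.

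PRKAG3, the gamma3 subunit of skeletal muscle (ENSG00000115592.13, chromosome 2 from 218822383 to 218832086, reverse strand), had 0, 0 and 2 counts in CAD-KO2+IR and 1, 3 and 0 in sgVec+IR. No library exceeded 3 counts, the floor used here, and no fold is given. It did not pass the filter on low counts and is the 1 member that was not tested.

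PRKAG2 made up 98.0%, 98.7% and 96.2% of gamma mRNA per length in CAD-KO2+IR and 93.9%, 96.0% and 88.7% in sgVec+IR. The difference of 4.78 points had an exact permutation p of 0.1, the smallest that 3 libraries against 3 allow. The share of PRKAG1 was 2.17 ± 1.01% against 6.71 ± 4.20% (SD, n = 3 each), a difference of -4.53 points (exact permutation p = 0.2). Without both libraries that stood apart the difference was -1.79 points. Each gamma share inherits the uncertain count of PRKAG1.

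The upstream kinases overlapped between the groups. STK11 (ENSG00000118046.17, chromosome 19 from 1177558 to 1228435, forward strand) had 101, 50.8 and 90.4 CPM in CAD-KO2+IR and 104, 111 and 29.6 CPM in sgVec+IR. The lowest value of each group came from the library that stood apart, the reverse of PRKAA1. The means of 80.6 ± 26.3 and 81.6 ± 45.1 CPM (SD, n = 3 each) gave a log2 fold change of -0.02 (SE 0.50, adjusted p = 1.0), and -0.42 without sgVec+IR replicate 3.

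CAMKK2 (ENSG00000110931.19, chromosome 12 from 121237691 to 121298308, reverse strand) had 83.3, 70.6 and 83.4 CPM in CAD-KO2+IR and 107, 93.8 and 67.6 CPM in sgVec+IR. The groups overlapped through sgVec+IR replicate 3, the lowest library, while the other 2 sgVec+IR libraries were above all of CAD-KO2+IR. Its log2 fold change was -0.18 (SE 0.21, adjusted p = 1.0), but it was -0.34 without sgVec+IR replicate 3, -0.03 without sgVec+IR replicate 1 and -0.10 without CAD-KO2+IR replicate 2. With 2 libraries against 2 it was -0.26 (adjusted p = 0.00811), below the 1.5-fold change asked of a call. In that fit 3875 of 13059 genes had an unadjusted p under 0.05.

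MAP3K7 (ENSG00000135341.19, chromosome 6 from 90513573 to 90587045, reverse strand) had 80.0, 99.6 and 85.5 CPM against 78.9, 76.7 and 123 CPM. The groups overlapped, and the highest library of each was again the one that stood apart. The log2 fold change was -0.07 (SE 0.23, adjusted p = 1.0), and 0.19 without sgVec+IR replicate 3.

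**Figure D2:**
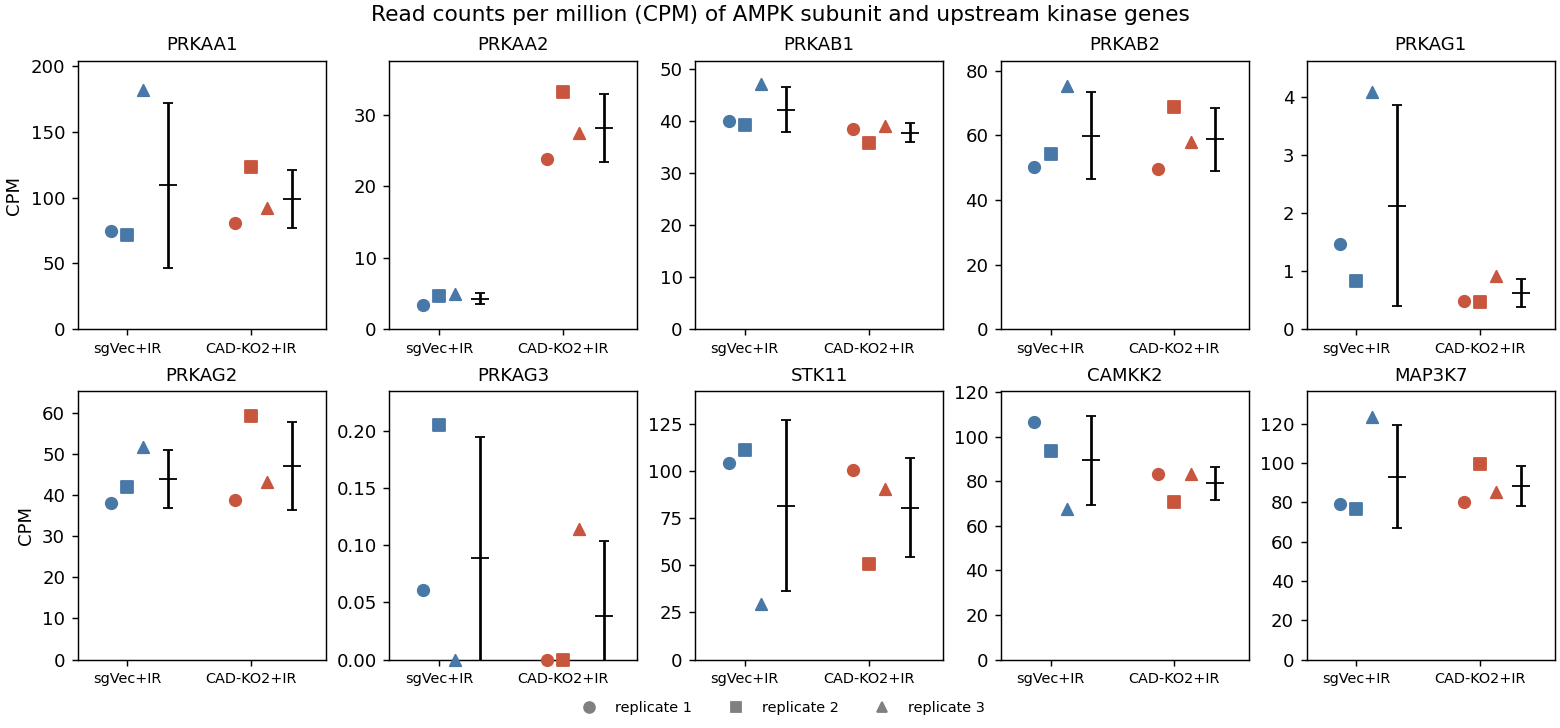
Level of each of the 10 genes in CPM (linear axis from 0, 1 panel per gene) in sgVec+IR (left) and CAD-KO2+IR (right), 1 point per library with its replicate number as symbol and the group mean ± SD beside it. PRKAA2 separates the groups (23.8 to 33.3 against 3.42 to 4.87 CPM), whereas sgVec+IR replicate 3 lies above its group at PRKAA1 (182 CPM) and below it at STK11 (29.6 CPM).

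The thresholds of the study's methods, a fold of 1.5 or more with an adjusted p under 0.05, were passed upward by 1 of the 9 members tested, PRKAA2, and downward by 0. Over all 12925 genes tested they were passed by 4 genes, or 0.0309%, of which 1 was higher (0.00774%), PRKAA2 itself. Since this contrast chose the family, PRKAA2 had to be among the genes that differ, and nothing is read from its calls, here or under another tool or set of libraries. Of the 8 other members tested, PRKAG1 had an unadjusted p under 0.05 in edgeR, as had 2.85% of all genes, and DESeq2 called none, while it called 0.245% of all genes. Among these 8 the groups did not overlap at 1, PRKAB1, beside 10.2% of all genes tested. They did not overlap at PRKAA2 either, but the choice of the family fixed that beforehand. The median log2 fold change of the 9 members was -0.07, with 2 positive and 7 negative, and that of all genes tested was -0.01, with 6214 positive and 6711 negative. Without sgVec+IR replicate 3 the median of the members became 0.17, and none of the 8 others was called, beside 0.167% of all genes. As a description, the log2 fold change of PRKAA2 lay between 2.58 and 2.84 over the 6 fits that left out 1 library. Leaving out any library but sgVec+IR replicate 3 put it outside the thresholds, and these calls too are not read as a test.

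**Figure D3:**
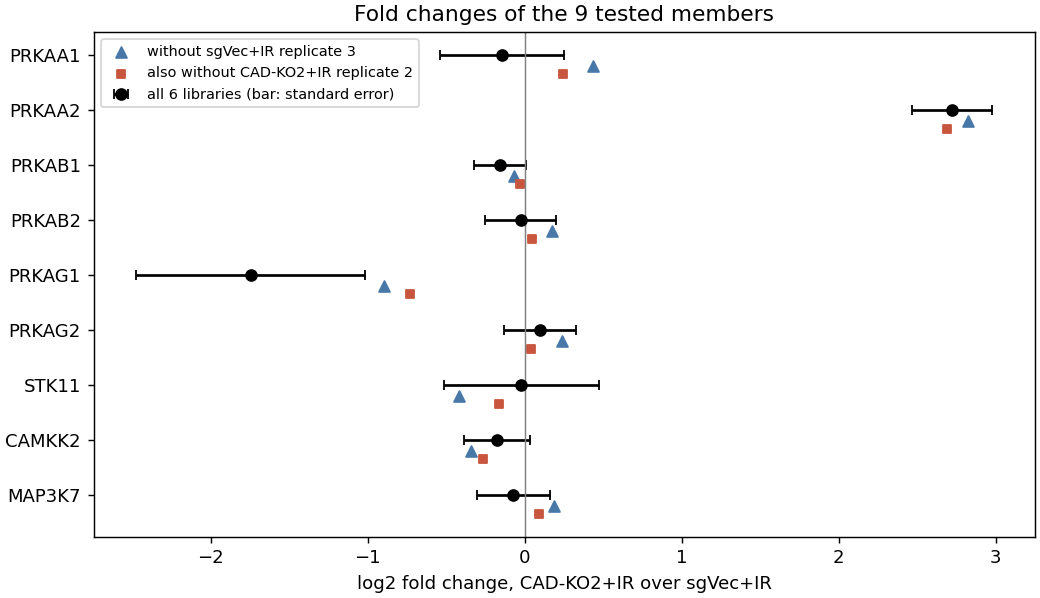
log2 fold change of CAD-KO2+IR over sgVec+IR for the 9 members tested, with all 6 libraries (bars give 1 SE), without sgVec+IR replicate 3, and with 2 libraries against 2. PRKAA2 stays near 2.72 in each, while PRKAA1, PRKAB2 and MAP3K7 change from below to above 0 once sgVec+IR replicate 3 is left out.

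Ordered by CPM per kb of exon, PRKAA1 had the highest mean of the members in both groups, at 15.05 ± 3.35 in CAD-KO2+IR and 16.7 ± 9.57 in sgVec+IR (SD, n = 3 each). In sgVec+IR this rested on replicate 3, at 27.7, and over replicates 1 and 2 the mean of PRKAA1 was 11.1, below CAMKK2 at 14.5 and STK11 at 12.5. In CAD-KO2+IR the order continued with MAP3K7 (12.2), CAMKK2 (11.4), PRKAB2 (10.8), STK11 (9.32), PRKAG2 (6.99) and PRKAB1 (6.05), and the ranges of neighbours overlapped all along this stretch. PRKAA2 followed at 3.02 ± 0.508, then PRKAG1 at 0.149 ± 0.0593 and PRKAG3 at 0.0114, each separated from its neighbours. In sgVec+IR the same 7 genes led, with overlapping neighbours, and PRKAA2 stood at 0.459 ± 0.0817, below PRKAG1 at 0.508 ± 0.414 with overlapping ranges. The order of these last 2 also rested on replicate 3, and over replicates 1 and 2 PRKAA2 averaged 0.428 and PRKAG1 0.274. PRKAA2 was thus among the scarcest members in the control, and in CAD-KO2+IR it still lay below every activating kinase and both beta subunits.

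The deviations of the members within their groups went with base composition, though not at every member. GC content, taken over the longest coding transcript, was lowest in PRKAA2 and PRKAA1, followed by MAP3K7 (38.7%) and PRKAB2 (41.4%), and highest in STK11 (65.8%). In sgVec+IR replicate 3, PRKAA1 deviated by 1.31 and STK11 by -1.86 in log2 CPM from the mean of the other 2 libraries of the group. In CAD-KO2+IR replicate 2 the same genes deviated by 0.51 and -0.91. PRKAG1, of few counts and 48.0% GC, left this order. It deviated by 1.78 in sgVec+IR replicate 3, more than PRKAA1, and by -0.41 in CAD-KO2+IR replicate 2. Across the 9 members tested, the correlation of GC content with the deviation was -0.714 in sgVec+IR replicate 3 and -0.865 in CAD-KO2+IR replicate 2, and it was 0.474 to 0.898 in the other 4 libraries. Over the 12913 genes with a GC value it was -0.619 and -0.767 in those 2 libraries and 0.512 to 0.708 in the others, so all genes showed the same signs. The deviations of a gene within a group cancel out, so the correlations of a group's libraries are not separate observations. These are descriptions across genes of the same libraries, and their cause was not tested. With a lowess correction for GC content, chosen after seeing the data, the log2 fold change of PRKAA2 was 2.73, that of PRKAA1 -0.02 and that of STK11 0.07.

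**Figure D4:**
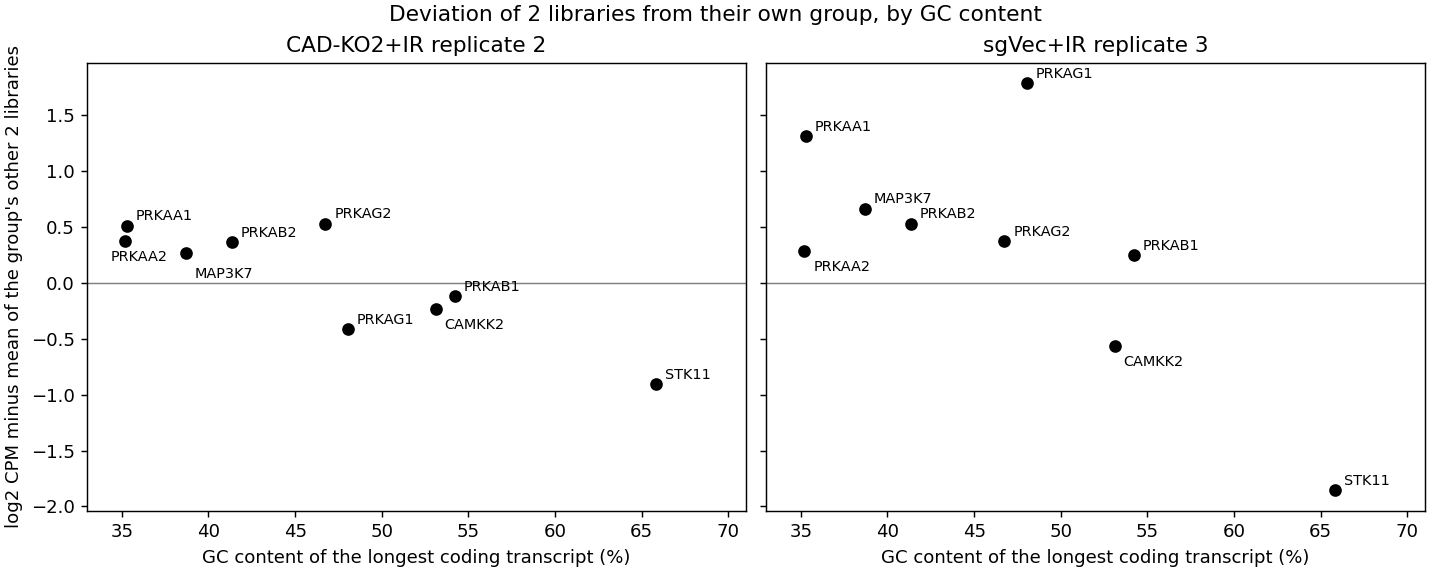
Deviation of the 9 tested members in log2 CPM from the mean of the other 2 libraries of the group (vertical axis) against the GC content of the longest coding transcript in percent (horizontal axis), for the 2 libraries that stood apart. The 5 members of lowest GC content lie above 0 in both panels and STK11 lies lowest in both (-0.91 and -1.86).

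Over the 6 libraries, log2 CPM of PRKAA1 ran opposite to STK11 (Pearson r = -0.992) and along with MAP3K7 (0.998) and PRKAB2 (0.944), as a description in libraries that share the spread by GC content. PRKAA2 had r = 0.07 with PRKAA1, a value that includes the split between the groups for which PRKAA2 was chosen. Within the groups it shared part of the spread. It deviated by 0.38 in CAD-KO2+IR replicate 2 and 0.29 in sgVec+IR replicate 3, upward like PRKAA1, MAP3K7 and PRKAB2. In sgVec+IR replicate 2 it deviated by 0.16, where those genes deviated downward. Among the 12924 other genes tested, those most like PRKAA2 were RBM17 (0.998), AHNAK (0.992), ZNF578 (0.992), CDCP1 (0.990) and MFHAS1 (0.987), and 46 genes exceeded 0.95. Since PRKAA2 was chosen by its difference between the groups, a high correlation with it largely restates that split. This list is a description only. Those most like PRKAA1 were MOB1A, PABIR2, FKBP1A, ELOVL7 and TASOR, each at 0.999, and 1739 genes exceeded 0.95. Of the genes most like PRKAA2, ZNF578 had a log2 fold change of 8.90 and RBM17 of 0.22. A high correlation over these 6 libraries thus did not go with a like size of difference.

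The other genes of the pathway were read from the same fit in 4 lists of 71 genes, of which 67 were tested. None was called in either direction by edgeR or by DESeq2, beside 0.0309% and 0.245% of all genes. In edgeR 1 of the 67 had an unadjusted p under 0.05, beside 2.85% of all genes tested. Of 16 partners and regulators of the upstream kinases and of AMPK, 7 had positive and 9 negative log2 fold changes, with a median of -0.04, which was 0.20 without sgVec+IR replicate 3. TAB2, an adaptor of TAK1, had 127 ± 28.2 CPM in CAD-KO2+IR and 127 ± 23.7 in sgVec+IR (SD, n = 3 each; log2 fold change 0.01), and TAB3, a further adaptor, 64.9 ± 16.6 and 67.0 ± 19.8 CPM (-0.04). PPM1A, a phosphatase, had 72.7 ± 11.1 and 71.2 ± 17.3 CPM (0.03). CAB39, the scaffold MO25 that binds LKB1, had 99.99, 140 and 112 CPM against 74.2, 62.5 and 108 CPM, a log2 fold change of 0.53 (SE 0.25, adjusted p = 1.0). For CAB39 the groups overlapped in that sgVec+IR replicate 3 lay between the CAD-KO2+IR libraries, and its log2 fold change without that library was 0.78 (adjusted p = 0.268). Without it TAB2, TAB3 and PPM1A had 0.18, 0.23 and 0.25.

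The AMPK-related kinases resemble the alpha subunits in their kinase domain, and LKB1 phosphorylates most of them. Of 14, HUNK did not pass the filter on low counts, and the 13 others had 7 positive and 6 negative log2 fold changes with a median of 0.08 and a range from -0.49 to 0.30, and the median was -0.03 without sgVec+IR replicate 3. The 4 most abundant were MELK (117 ± 18.1 and 120 ± 34.8 CPM, log2 fold change -0.03), MARK3 (105 ± 4.86 and 98.5 ± 2.002 CPM, 0.09), MARK2 (75.9 ± 15.1 and 71.9 ± 24.2 CPM, 0.08) and SIK2 (64.3 ± 4.29 and 56.4 ± 9.39 CPM, 0.19), each with an adjusted p of 1.0. MARK3 varied least between libraries of these 4, with 0.08 without sgVec+IR replicate 3, where MELK had 0.23, MARK2 -0.18 and SIK2 0.06.

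Of 27 AMPK substrates, PPARGC1A did not pass the filter, and the other 26 split evenly into 13 positive and 13 negative with a range from -0.38 to 0.44. ACACA, the acetyl-CoA carboxylase that AMPK switches off, had 386 ± 14.3 and 406 ± 39.6 CPM (log2 fold change -0.07). The lipid synthesis factors SREBF1 and SREBF2 had 151 ± 39.8 and 184 ± 75.8 CPM (-0.29) and 252 ± 41.6 and 257 ± 72.9 CPM (-0.02). Without sgVec+IR replicate 3 the log2 fold changes of SREBF1, SREBF2 and ACACA were -0.59, -0.24 and -0.15 (adjusted p of 0.407, 0.481 and 0.504). With 2 libraries against 2 that of SREBF1 was -0.39 (adjusted p = 6.3e-06), below the 1.5-fold change asked of a call. In that fit, chosen after seeing the data, 3875 of 13059 genes had an unadjusted p under 0.05. The kinase acts on these proteins by phosphorylation, which mRNA counts do not measure.

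Genes that read out metabolic state were 14, of which 12 were tested, with 7 positive and 5 negative log2 fold changes and a median of 0.02. The glucose transporter SLC2A1 had 557 ± 93.7 and 547 ± 173 CPM (log2 fold change 0.03), and hexokinase HK2 143 ± 14.2 and 144 ± 11.3 CPM (-0.01). CPT1A, which brings fatty acids into mitochondria, had 246, 227 and 231 CPM against 219, 209 and 198 CPM (0.17, SE 0.13, adjusted p = 1.0). The groups did not overlap at CPT1A, as at 10.2% of all genes tested and at further genes of the 4 lists. TFAM, which maintains mitochondrial DNA, had 96.8 ± 19.6 and 85.9 ± 23.8 CPM (0.17). Without sgVec+IR replicate 3 SLC2A1 had -0.21, HK2 -0.04, CPT1A 0.13 and TFAM 0.42, and the median of the list was -0.03.

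With 2 libraries against 2, a choice made after seeing the data, CAB39 (log2 fold change 0.64), CAMKK1 (0.60) and PDK4 (-0.96) passed both thresholds, 3 of 67, beside 3.37% of all genes. With voom and sample weights, also chosen then, CAB39 and PDK4 passed both, 2 of 67, beside 5.15% of all genes. These 3 are named after their values were seen. CAMKK1, a relative of CAMKK2, had -0.13 with all 6 libraries. PDK4, a kinase that restrains pyruvate oxidation, had 1.68, 3.06 and 2.51 CPM in CAD-KO2+IR and 4.22, 3.90 and 4.23 CPM in sgVec+IR. The groups did not overlap at PDK4, at low counts of 31 to 69, as they did not at 10.2% of all genes tested. Its log2 fold change was -0.77 (SE 0.32, adjusted p = 1.0) with all 6 libraries.

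**Figure D5:**
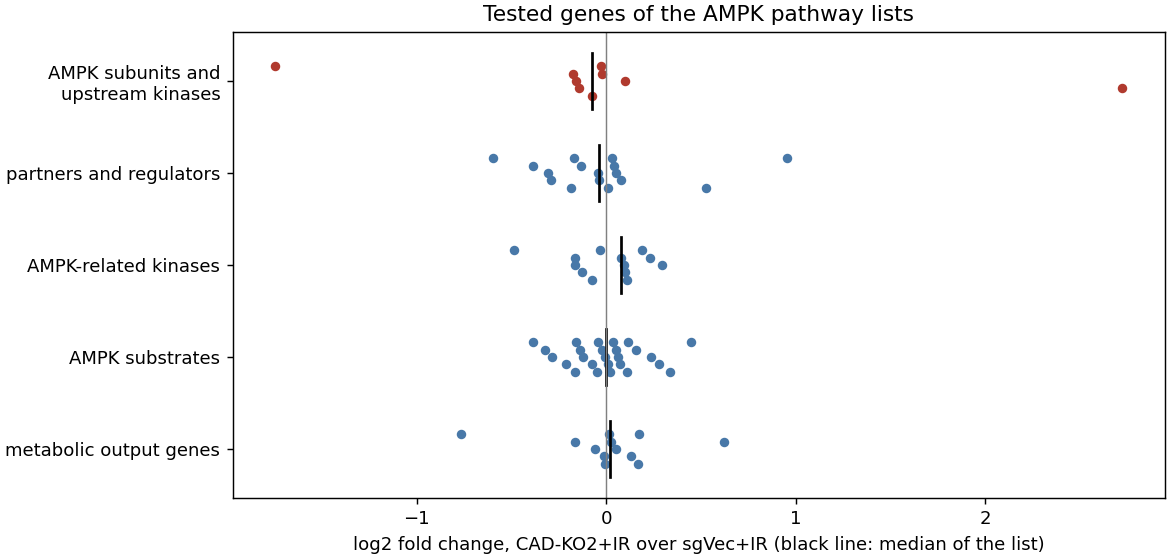
log2 fold change (CAD-KO2+IR over sgVec+IR, all 6 libraries) of the 67 tested genes of the 4 pathway lists and of the 9 tested members, 1 point per gene, with the median of each list as a line. The list medians lie between -0.04 and 0.08 and the members' median at -0.07, and PRKAA2 at 2.72 lies farthest to the right.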

How the data were processed

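RNA-seq of HCT116 cells was read from 1 table of raw counts per gene, which the authors made with fastp and featureCounts (version 1.5.0-p3) and deposited without normalization. The aligner, strand setting and annotation are not given in the sources used here. The submitters' processing notes name the mouse build mm10 although the gene identifiers are human, and the molecule field of the labels reads genomic DNA where the study describes total RNA. Columns were matched to samples by title.

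Analyses ran in R 4.3.3. Genes were filtered with filterByExpr (minimum count 10, minimum total 15), which left 12925 of 20020 genes. Groups were compared by the quasi-likelihood test of edgeR 4.0.16 (TMM scaling, legacy set to FALSE, Benjamini-Hochberg adjustment over the genes tested), with CAD-KO2+IR as the numerator of every fold. CPM divide each count by the TMM-scaled library total. A call needed a fold of 1.5 or more with an adjusted p under 0.05. Standard errors were derived from the F statistic. DESeq2 1.42.0 and limma 3.58.1 (voom) were alternatives, as were other normalizations and filters, a replicate block and leaving out each library. GC correction (lowess span 0.3), sample weights and 2 libraries against 2 (without CAD-KO2+IR replicate 2 and sgVec+IR replicate 3) were chosen after seeing the data. Isoform shares used counts per exonic base and two-sided exact permutation tests. Gene positions, lengths, GC content and sequences came from GENCODE release 29 on GRCh38, whose identifiers matched 19823 of the 20020 once the version was ignored. The scripts were tested on simulated data.

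The members and lists were chosen with earlier results of these data known. Named were all members, DFFB, the markers, each list's called genes and its 4 genes of highest mean CPM, and the 5 genes most correlated with PRKAA2 and with PRKAA1. One further gene that this rule covers is not reported here. Totals per library ran from 14032994 to 19574144 counts. A floor of 3 counts is 0.0546 CPM over CAD-KO2+IR and 0.0665 CPM over sgVec+IR, for counting error only, since the reads carry no molecular identifiers.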

Additional observations from a re-analysis of the deposited data

How the results depend on the processing

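PRKAA2 had log2 fold changes of 2.58 to 2.84 in the 18 alternative fits. These fits reuse the libraries in which PRKAA2 was chosen, so its kept direction is a description and no support. The count of members called higher, 1 in the report, was the call of PRKAA2 alone, and nothing is read from it. It was 0 with limma-voom (0 of 12925 genes called in all, 302 at an unadjusted p under 0.05). With the replicate block it was 0 (0 in all, 146 unadjusted), as with GC correction and the block together. When 1 library was left out it was 0 to 1, where the 1 was the fit without sgVec+IR replicate 3. Members called lower went from 0 to 1, PRKAG1, with an unadjusted p. Pathway genes called higher went from 0 to 1 with voom and sample weights (CAB39, beside 5.15% of all genes) and to 2 with 2 libraries against 2, and those called lower from 0 to 1, PDK4, in both of these and with an unadjusted p. The cause was not tested.

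Log2 fold changes that crossed 0 were those of PRKAA1 (-0.36 to 0.44 over the fits that left out 1 library, 0.30 with sample weights, 0.25 with 2 against 2), PRKAB2 (-0.16 to 0.17, 0.11 and 0.0482), MAP3K7 (-0.19 to 0.19, 0.12 and 0.0931), PRKAG2 (-0.10 to 0.24) and STK11 (-0.42 to 0.27, 0.13 with limma-voom, 0.11 with the replicate block, 0.0653 with GC correction, 0.0742 with both). CAMKK2 was -0.34 to -0.03 without 1 library, -0.27 with sample weights (adjusted p = 0.0184) and 0.00811 to 1.0 in adjusted p over its alternatives. With sample weights 4793 of 12925 genes had an unadjusted p under 0.05, and with 2 libraries against 2 these were 3875 of 13059. The PRKAA2 share difference of 13.7 points was 18 with raw counts and 18.5 with coding length, and 13.1 to 14.3 without 1 library. That of PRKAB2 was -0.369 to 4.28 without 1 library, and that of PRKAG1 -6.37 to -2.25.

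Deviations of same-numbered libraries from their group means had r = 0.468, -0.545 and -0.379 for replicates 1, 2 and 3. The deviations within a group cancel at each gene, and 1 library stood apart in each group. The check therefore cannot decide whether the numbers pair the samples. CAD-KO2+IR replicate 2 correlated best with sgVec+IR replicate 3 (0.552).

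PRKAG1 rests on 9 to 58 counts per library, and for PRKAG3 no difference was detectable at this depth.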

Other observations

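TXNIP, which encodes a brake on glucose uptake whose protein AMPK targets for degradation, was listed at 0 counts in all 6 libraries, although the table reached 14032994 to 19574144 counts per library. For comparison, SLC2A1 had 557 and 547 CPM in CAD-KO2+IR and sgVec+IR. The level of TXNIP in these cells was therefore not read. DES, a muscle marker, had 55 to 93 counts in 5 libraries and 0 in sgVec+IR replicate 3.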
